A study of Mus musculus with 12 samples.

Results

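The regions described here are stretches of mouse chromosome 5 that carried an H3K27me3 peak in both Ezh2 knockout libraries of the first experiment and in neither wild-type library. Overlapping peaks of the knockout lists were joined, joined regions holding a peak of each list were kept, and any region touching a wild-type peak by 1 bp or more was dropped. This left 3139 regions on chromosome 5, of 14056 such regions on all chromosomes. They were chosen by the knockout and wild-type peaks of the first experiment, so the presence of knockout peaks and the lack of wild-type peaks in them is a description and was not tested. Of all reproducible knockout regions, 89.5% touched no wild-type peak (14056 of 15709), and on chromosome 5 the share was 87.4% (3139 of 3590). Asking for only 1 knockout list made the set larger, with 7495 regions without knockout replicate 1 and 6287 without knockout replicate 2.

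Trimethylation of lysine 27 on histone H3 is laid down by the Polycomb repressive complex PRC2, with EZH2 or its paralog EZH1 as the catalytic subunit. The mark covers promoters of silent developmental genes and can spread over broad silent domains, and EZH2 provides most of it in dividing cells. The study deleted Ezh2 in 1 clone of mouse embryonic fibroblasts transformed with c-Myc, using a tamoxifen-inducible Cre recombinase, and mapped H3K27me3 by chromatin immunoprecipitation and sequencing. Experiment 1 compared Ezh2 -/- cells with cells not induced to delete it (Ezh2 WT/WT in the labels), 2 libraries each, read on a SOLiD instrument. Experiment 2 used another antibody and an Illumina instrument, with 2 libraries of Ezh2 -/- cells, 1 of cells given retroviral Flag-Ezh1 before the deletion (Ezh1 pre-rescue), 1 given Flag-Ezh2 before it (Ezh2 pre-rescue), and 2 of uninduced cells (wild type). By the study's methods the clone carried 1 floxed and 1 already deleted Ezh2 allele, so the cells labelled wild type carry a deleted allele too. All groups share the c-Myc transgene and derive from the same clone, so they stand for 1 cell line. The deposited lists give positions only, with no peak heights and no gene expression, so neither the deletion nor the fibroblast identity could be checked in them. The study followed Ezh2 and H3K27me3 by Western blot and reports that the deletion strongly lowered the mark. A knockout peak without its height therefore does not show a gain of the mark.

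In experiment 1 the lists held 36477 and 55563 peaks in the knockout libraries and 82566 and 82407 in the wild-type libraries. In experiment 2 they held 29 and 382 peaks in the knockout libraries, 114211 in the Ezh1 pre-rescue, 64628 in the Ezh2 pre-rescue, and 18284 and 13417 in the wild-type libraries. By the study's methods, reads were brought to a common total and the Ezh2 -/- libraries were then thinned the most and the Ezh1 pre-rescue less, following the immunoprecipitated DNA, before peak calling. Whether both experiments were treated so is unstated. The length of a list limits how many regions it can meet, so few knockout peaks in experiment 2 cannot be told apart from few reads.

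Sequences are shown for 5 of the regions, to give the kind of DNA they cover: each is the central 200 bp of the longest stretch shared by both knockout lists, on the plus strand of mm9, with CpG dinucleotides in capitals. The first lies at chr5:141591062-141591261, in the widest region, upstream of Sdk1. The next pair lie in introns of Ccdc60 (chr5:116727580-116727779) and Tmem132d (chr5:128684123-128684322), also in very wide regions. The fourth is intronic in Ran (chr5:129527366-129527565), a narrow region beside the start of a ubiquitously expressed gene. The last is intronic in Nos1 (chr5:118394872-118395071), in a region 211 bp from a wild-type peak.
Sdk1 upstream: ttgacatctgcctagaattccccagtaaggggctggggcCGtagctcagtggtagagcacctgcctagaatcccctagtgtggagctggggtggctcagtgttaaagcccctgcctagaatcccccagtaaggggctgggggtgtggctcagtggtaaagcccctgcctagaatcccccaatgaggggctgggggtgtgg
Ccdc60 intron: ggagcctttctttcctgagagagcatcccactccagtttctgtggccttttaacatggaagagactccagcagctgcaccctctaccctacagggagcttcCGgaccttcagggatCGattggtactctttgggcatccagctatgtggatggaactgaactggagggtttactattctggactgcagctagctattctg
Tmem132d intron: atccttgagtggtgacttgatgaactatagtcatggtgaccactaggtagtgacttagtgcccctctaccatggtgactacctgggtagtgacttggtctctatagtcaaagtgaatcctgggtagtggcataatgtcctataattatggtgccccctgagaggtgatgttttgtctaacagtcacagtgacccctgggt
Ran intron: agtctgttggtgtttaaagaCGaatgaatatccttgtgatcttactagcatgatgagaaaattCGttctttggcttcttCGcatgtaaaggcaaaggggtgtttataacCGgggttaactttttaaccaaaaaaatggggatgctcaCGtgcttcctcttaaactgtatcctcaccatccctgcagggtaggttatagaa
Nos1 intron: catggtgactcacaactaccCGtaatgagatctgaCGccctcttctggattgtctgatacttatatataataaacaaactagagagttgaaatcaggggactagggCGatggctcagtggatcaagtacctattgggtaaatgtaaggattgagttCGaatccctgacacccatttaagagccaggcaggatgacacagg
These windows hold 1, 2, 0, 5 and 4 CpG dinucleotides, with G+C contents of 60%, 51.5%, 47%, 40.5% and 44.5%. The Sdk1 window is a short tandem repeat in which the 12-mer cctagaatcccc occurs 3 times. Exact repetition of this kind was not common: a 12-mer present at least 3 times was found in 92 of the 3139 regions' central windows (2.93%, 95% Wilson interval 2.40 to 3.58%), against 4.01% (3.36 to 4.78%) of wild-type regions and 4.24% (4.04 to 4.45%) of windows placed every 4 kb along the chromosome. The count takes exact copies only, so diverged repeats can be missed.

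Chromosome 5 carried far more of these regions than any other chromosome. It had 20.6 per Mb, against 4.69 per Mb over the 18 other autosomes together, a 4.39-fold density. Among those autosomes the density ran between 1.41 per Mb on chromosome 14 and 9.17 per Mb on chromosome 2. The X chromosome of this male line had 0.09 per Mb. Chromosome 5 makes up 5.75% of the genome and held 22.3% of all knockout-only regions. That weight was not particular to regions without a wild-type peak. Of all reproducible knockout regions, with or without one, 3590 of 15709 lay on chromosome 5. It also held 21.2% and 21.7% of all peak bases of the knockout libraries. With a single knockout list the density on chromosome 5 was 2.64-fold that of the other autosomes without knockout replicate 1 and 3.45-fold without knockout replicate 2.

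**Figure D1:**
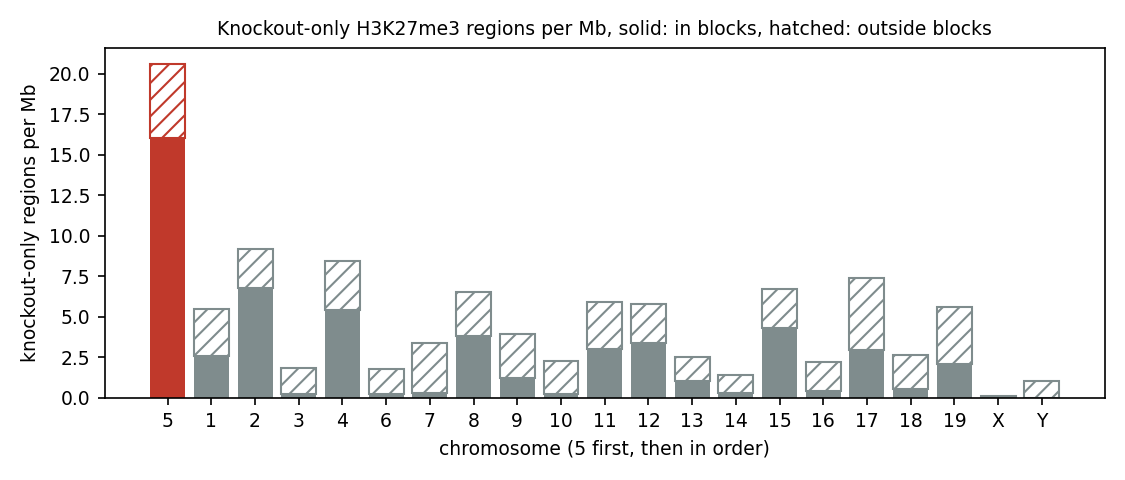
Knockout-only regions per Mb on each chromosome, split into regions inside blocks (solid, at least 20 regions chained at gaps under 50 kb) and outside them (hatched). Chromosome 5 (red) reached 20.6 per Mb, and the next, chromosome 2, 9.17 per Mb.

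The regions were short but broader than those elsewhere. Their median width was 1696 bp (quartiles 959 and 3140 bp, range 163 to 28092 bp), against 1313 bp (807 and 2268 bp) for knockout-only regions of other chromosomes and 2263 bp (1207 and 4409 bp) for the 2943 reproducible wild-type regions of chromosome 5. Together they covered 7.997 Mb, or 5.24% of the chromosome, and the 72 regions of at least 10 kb made up 12.1% of that. The second knockout list supplied most of the width. Its peaks lay under 90.9% of the bases and formed a single peak in 94.4% of regions, whereas those of the first lay under 44.9% of the bases, with up to 10 peaks in 1 region. Only 35.8% of the bases were under peaks of both lists.

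The 5 widest regions show this difference. The widest, chr5:141587300-141615391, lay 102 kb from Sdk1, an immunoglobulin-superfamily adhesion molecule of synapses, and its 28092 bp were 57.2% and 86.9% under peaks in the knockout libraries, against 0% in both wild-type libraries. A 25669-bp region in Ccdc60 (chr5:116705354-116731022) was 37.5% and 98.4% covered by the knockout lists. A 23421-bp region inside Sdk1 (chr5:142601135-142624555) was 47.5% and 100% covered, and it alone of the 5 overlapped an exon, over 2.02% of its length. In Tmem132d, a neural transmembrane gene, a 23090-bp intronic region (chr5:128676639-128699728) was 33.2% and 99.1% covered. The last, 22011 bp in 2900026A02Rik (chr5:113569649-113591659), was 24.9% and 100% covered. In the fullest 5-Mb windows the widest regions were the Ccdc60 and Tmem132d ones and chr5:134370638-134380686 (10049 bp, 195 kb from Gatsl2), which was 45.2% and 100% covered by the knockout lists. In all 6 the second knockout library had the larger share, and no experiment 2 list had a peak.

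At the selection edge, the region nearest to a wild-type peak, chr5:145488027-145488904 near Tmem130, lay 26 bp from it, the next, in Nos1 (chr5:118394427-118395158), 211 bp, and the third, in Magi2 (chr5:20195966-20196825), 377 bp. Just outside, 3 reproducible knockout regions were left out for overlaps of 20 bp (chr5:120510642-120518498, 48.0 kb from Rbm19), 32 bp (chr5:145500786-145501359, in Tmem130) and 82 bp (chr5:145141064-145145545, in Bri3). Only 34 regions lay within 1000 bp of a wild-type peak. The median distance to the nearest one was 290 kb, so most of these regions were far from any called wild-type peak. Signal too weak to be called as a peak cannot be seen in the lists.

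Along the chromosome the regions were gathered into a few crowded stretches. The stretch beyond the chromosome's midpoint held 78.9% of them (2477 of 3139), against 60.8% of reproducible wild-type regions and 66.2% of protein-coding transcription start sites (TSSs). Of 153 windows of 1 Mb, the 10 fullest held 1431 regions (45.6%), with 113 to 181 in each, while the median window had 5 and 30 windows had none. The empty windows include those up to 3000000 bp, where the reference has no sequence. The fullest began at 133 Mb and held 181 regions, 1 TSS and no wild-type region. That starting at 127 Mb held 176 regions, 1 TSS and no wild-type region. The 10 fullest windows had a median of 2.5 TSSs, against 7 over all windows, and a median of 9 wild-type regions, against 14 over all windows. In turn, the 10 windows with most genes held 292 TSSs and only 54 regions in all, with no more than 24 in any.

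**Figure D2:**
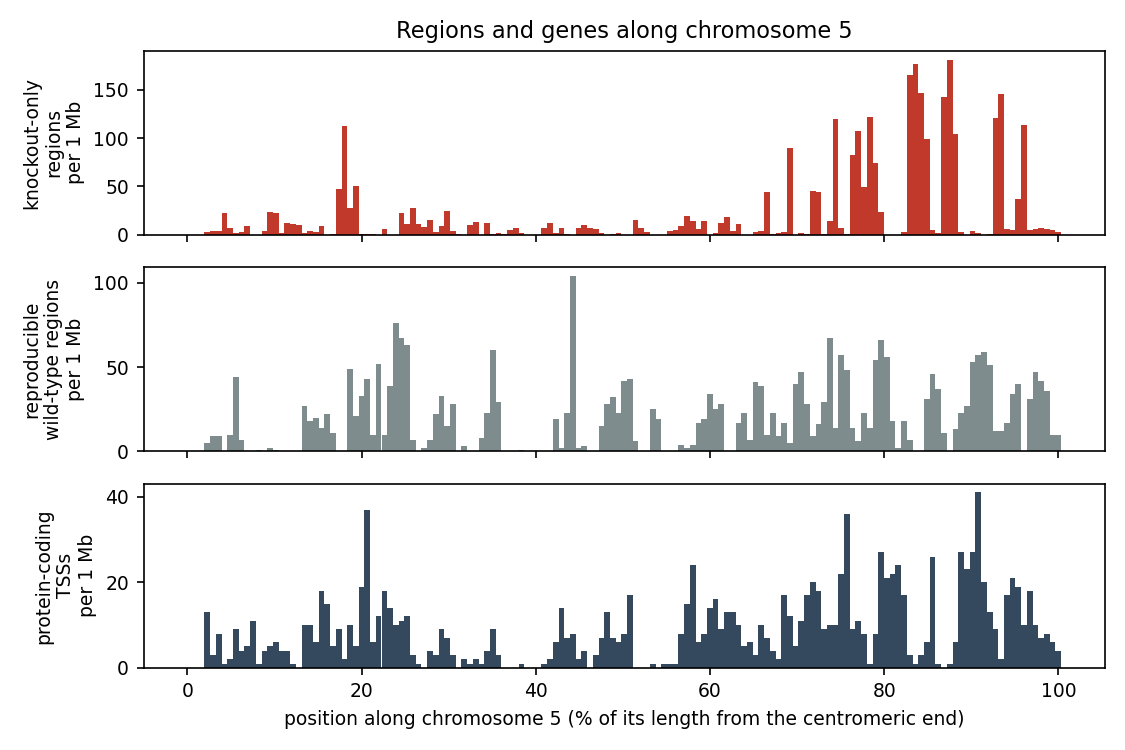
Knockout-only regions, reproducible wild-type regions and protein-coding TSSs in 1-Mb windows along chromosome 5, with position as a percentage of its length. Crowded windows of up to 181 regions lay mainly beyond the midpoint, and windows with most genes had few regions.

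How far regions followed genes depended on the scale of the windows. Across 1-Mb windows the number of regions and of TSSs had almost no rank correlation (Spearman rho -0.04, Pearson r -0.14, 153 windows). The same held across 2-Mb windows (rho 0.08, 77 windows). That does not make the counts unrelated, since the fullest windows had few TSSs and the windows with most genes held few regions. In 5-Mb windows rho was 0.35 (r 0.10, 31 windows), falling to 0.21 without knockout replicate 1, and in 10-Mb windows 0.72 (r 0.74, 16 windows). Over the same 4 window sizes rho with G+C content was 0.12, 0.24, 0.48 and 0.60. Wild-type regions tracked genes at every size, with rho of 0.61, 0.63, 0.81 and 0.91. Windows of 1 chromosome share its base composition and mappability, and the coefficients are descriptions only. The unsequenced start of the chromosome entered the smallest windows as empty points.

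The crowding was described by blocks, defined after the positions were seen as chains of at least 20 regions with gaps under 50 kb. There were 22 blocks of 192 kb to 2058 kb, together 16.6 Mb or 10.9% of chromosome 5. They held 2448 regions (78.0%) and 87.8% of the covered bases, but 61 of the 1309 protein-coding TSSs (4.66%). The 18 other autosomes had 79 blocks in all, no more than 14 on any one, with 48.5% of their regions. Outside blocks the density was 5.08 regions per Mb on chromosome 5 and 2.46 per Mb on the other autosomes together.

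Within the blocks, peaks covered 20.7% and 50.5% of bases in the knockout libraries, against 0.715% and 0.986% in the wild-type libraries. Outside the blocks the order was the reverse, with 1.27% and 2.86% of chromosome 5 under peaks in the knockout libraries and 6.83% and 8.12% in the wild-type libraries. Blocks are chains of regions chosen for knockout peaks and no wild-type peak, so the choice largely fixed this contrast. In 15 of the 22 blocks both wild-type lists covered under 1%, and in 7 they had no peak at all. The second knockout library covered more than the first in all 22 blocks. In experiment 2 the block bases under peaks were 0% and 0.00932% in the knockout libraries, 2.69% in the Ezh1 pre-rescue, 1.06% in the Ezh2 pre-rescue, and 0.121% and 0.0781% in the wild-type libraries. In each of these 6 lists peaks were sparser in the blocks than in the remainder of the chromosome, which they covered, in the same order, at 0.00405% and 0.0532%, 13.9%, 5.43%, and 0.975% and 0.714%. Experiment 2 used the same clone, so few wild-type peaks in the blocks were not independent of the choice.

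The longest block, chr5:126006445-128064248, held 351 regions over Tmem132b, Gm4868 and Tmem132c. Peaks covered 23.5% and 53.1% of it in the knockout libraries, against 0.766% and 1.05% in the wild-type libraries. Next to it, chr5:128119847-129528202 held 216 regions over Tmem132d, the Wnt receptor gene Fzd10, the germline Argonaute gene Piwil1, the presynaptic gene Rimbp2 and others. It was covered at 21.2% and 55.8% in the knockout libraries, against 0.0345% and 0% in the wild-type libraries. These neighbours together made up 567 of the regions.

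A block of 301 regions (chr5:132914401-134554938) ran from the 5′ part of Auts2, a neurodevelopmental gene, into a stretch with no other protein-coding gene, and another of 126 (chr5:132125351-132863721) lay within the same gene. The block over Sdk1 (chr5:141359766-142778758, 266 regions) was covered at 31.1% and 61.5% in the knockout libraries, against 0.0255% and 0.0232% in the wild-type libraries. The fullest by bases was chr5:112899683-113886085, with 69.0% of its length in 133 regions. It spans Sez6l, Myo18b, Adrbk2 and the lens crystallin genes Crybb2 and Crybb3, and was covered at 25.6% and 79.5% in the knockout libraries, against 0.739% and 1.25% in the wild-type libraries.

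One block surrounded a classic Polycomb locus. The 193 regions of chr5:119279774-120532889 lay around Tbx3 and Tbx5, genes of limb and heart T-box transcription factors, and peaks covered 21.8% and 68.1% of the block in the knockout libraries, against 0.463% and 1.14% in the wild-type libraries. Other blocks lay on tandem gene families. The guanylate-binding protein genes Gbp4, Gbp8, Gbp9 and Gbp10 with Abcg3 were in a block of 88 regions (chr5:105022365-105670039), and Cyp3a cytochrome P450 genes of drug metabolism in 2 blocks of 50 and 56 regions (chr5:146069633-146416111 and chr5:146555161-146996111). In the Gbp block the knockout libraries had 16.6% and 28.0% under peaks and the wild-type libraries 0%. Copies within such families are alike, so reads there can be assigned less surely.

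In their share of genic bases the regions resembled the chromosome at large, while exons made up less of them. Of the 3139, 1192 (37.97%) overlapped a protein-coding gene, and 42.6% of their bases were genic, against 43.2% of the sequenced chromosome. Exons made up 1.66% of their bases, against 3.10% for wild-type regions and 3.39% for the chromosome. The median distance to a protein-coding TSS was 106 kb, against 103 kb for knockout-only regions elsewhere and 27.6 kb for wild-type regions of chromosome 5. Within 2500 bp of a TSS lay 112 regions (3.57%), against 6.19% of knockout-only regions elsewhere and 12.5% of wild-type regions. Of the chromosome's single bases 4.07% lay so near. That is an unlike measure, since a region counts when any part of it comes near, and wider regions do so more easily. Over 100 kb from any TSS were 51.4% of the regions, against 15.3% of wild-type regions.

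Their median G+C content lay below that of the knockout regions that shared wild-type peaks. Median G+C was 44.9% (quartiles 42.5 and 47.2%), against 44.7% for knockout-only regions elsewhere, 45.8% for wild-type regions, 48.6% for the 451 left-out knockout regions that touched a wild-type peak, and 42.5% for chromosome 5 as a whole. CpG density was lower than in regions with wild-type peaks. The regions had a median of 7.82 CpGs per kb, against 7.42 in knockout-only regions elsewhere, 10.1 in wild-type regions and 11.1 in the 451 left-out regions. The chromosome had 9.15 per kb pooled over its bases. Like its G+C content, which is also pooled, this is a mean that cannot be set directly against the medians.

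A small set of long genes carried the regions across much of their length. Of the 155 protein-coding genes of at least 100 kb on chromosome 5, 15 had 25% or more of their body in these regions (9.68%, 95% Wilson interval 5.95 to 15.4%), 5 had 5 to 25%, and 96 had none. On the other chromosomes 0.712% of genes of that length were so covered (16 of 2246), with no more than 6 on any one. The 15 genes together held 828 of the regions (26.4%). Without knockout replicate 2 only 7 of the 15 remained past 25%, whereas without knockout replicate 1 all 15 did. The lengths and cutoff were chosen after values were seen, as were these genes.

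The highest share was in Myo18b, a myosin of striated muscle (chr5:113117896-113325382, 207 kb), with 28 regions over 76.3% of the gene. Peaks covered 25.9% and 80.8% of it in the knockout libraries, against 0% in both wild-type libraries. Srrm4, the neuronal microexon splicing regulator (chr5:116889281-117041826), had 28.6% and 76.0% in the knockout libraries and 0% in both wild-type libraries. Knockout peaks thus covered most of both genes in the second library and a smaller part in the first.

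Adrbk2, a G protein-coupled receptor kinase, had 23.4% and 78.7% of its body under peaks in the knockout libraries and 0% in both wild-type libraries. Sdk1, the second longest of the set at 974 kb (chr5:141717444-142691540), held 174 regions and had 28.0% and 57.4% under peaks in the knockout libraries, against 0% in both wild-type libraries. Tmem132d (675 kb, 106 regions) had 21.9% and 56.6%, and Tmem132c (324 kb, 63 regions) 27.5% and 68.5%, in the knockout libraries, both against 0% in the wild-type libraries. In all, 8 of the 15 genes had no wild-type peak in either library.

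The others had some wild-type peaks in the body. Nos1, neuronal nitric oxide synthase, had 26.98% and 79.1% under peaks in the knockout libraries, against 8.71% and 13.8% in the wild-type libraries. Sez6l, a neuronal membrane protein gene, had 26.7% and 78.6%, against 13.6% and 20.9%, in the same order. Auts2, the longest at 1106 kb with 144 regions, had 14.8% and 31.2%, against 4.72% and 6.27%, and Dpp6, which encodes an auxiliary subunit of Kv4 potassium channels, had 10.2% and 42.4%, against 0% and 0.151%. In each of the 15 genes both knockout values lay above both wild-type values, which the choice of genes largely fixed.

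**Figure D3:**
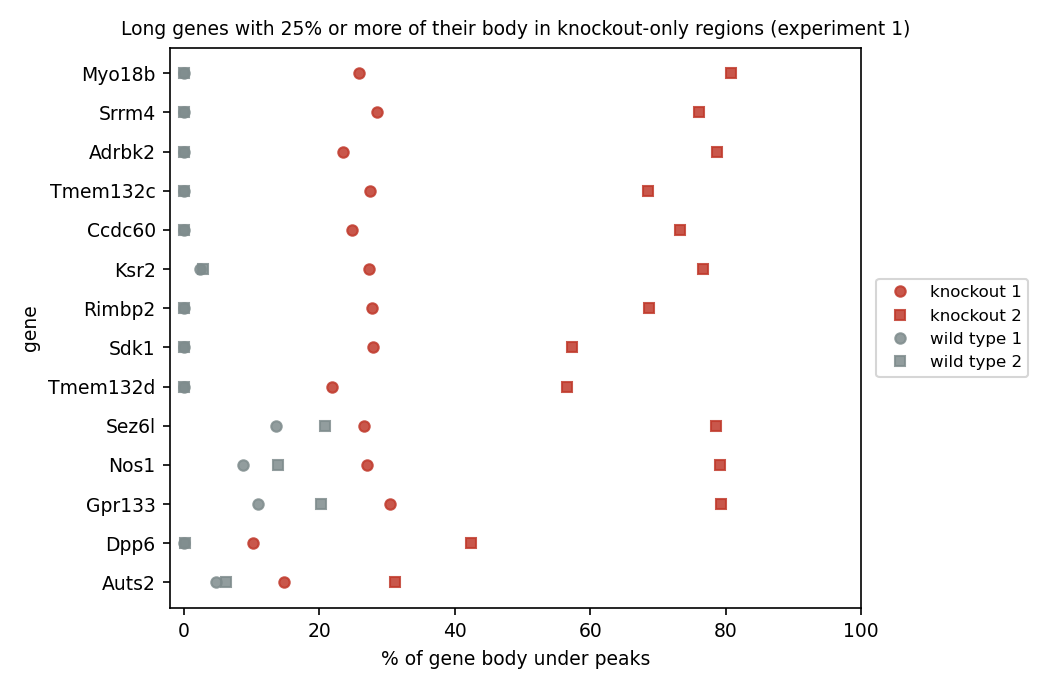
Percent of the gene body under peaks in the 4 libraries of experiment 1 (knockout red, wild type grey, circles replicate 1, squares replicate 2) for 14 of the 15 genes of at least 100 kb with 25% or more in knockout-only regions. Knockout replicate 2 exceeded replicate 1 in every gene shown, and 8 genes had no wild-type peak.

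Experiment 2 lists seldom had peaks in these gene bodies. Both knockout lists were at 0% in all 15, the Ezh1 pre-rescue had a median of 0.941% (highest 26.7%, in Nos1), the Ezh2 pre-rescue a median of 0.463% (highest 11.8%, in Gpr133), and both wild-type lists a median of 0%, with highest values of 0.872% and 1.85%. The genes with pre-rescue peaks over more than 10% of the body, Sez6l, Nos1 and Gpr133, had the largest shares under wild-type peaks in experiment 1.

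At promoters, 95 of 1309 protein-coding genes (7.26%, 95% Wilson interval 5.97 to 8.79%) had a knockout-only region within 2500 bp of the TSS, against 3.27% of genes on the other chromosomes (688 of 21058). A reproducible wild-type region lay there in 277 genes (21.2%). Without knockout replicate 1 the knockout-only share was 12.3%, and without knockout replicate 2 it was 11.5%. The widest region near the gene spanned the TSS in 15 genes, lay wholly downstream in 47 and wholly upstream in 33. Of the 95 genes, 43 were in blocks, with a median region width of 3461 bp, and 52 outside them, with 1231 bp.

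The 10 genes with the widest such regions all had their TSS in a block. They were 2900026A02Rik (22011 bp), Tmem132c (14272 bp), 2 gene models of Tmem132b (12732 and 11020 bp), Gm3209 (12726 bp), Sez6l (12374 bp), the small heat shock protein gene Hspb8 (11806 bp), the lens crystallin gene Crybb2 (11796 bp), Tmem211 (10993 bp) and Nos1 (10108 bp). At Hspb8 the promoter window was covered at 19.2% and 84.5% in the knockout libraries, against 0% in both wild-type libraries. At Crybb2 it was covered at 8.42% and 100% in the knockout libraries, against 0% in both wild-type libraries. At 2900026A02Rik the first knockout list had no peak within the window, and the second covered 49.6%.

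Gene lists of known function differed in how many promoters were met. Of 28 housekeeping and ubiquitous genes on the chromosome, 7 (25%) had a knockout-only region, beside 7.26% of all genes, and 1 had a wild-type region. Every cytosolic ribosomal protein gene of that list (Rplp0, Rpl6, Rpl9 and Rpl21) was among the 7, so the share does not speak for housekeeping genes at large. The lists were chosen with earlier results of these data known. Of 29 developmental transcription factor genes, classic PRC2 targets, 1 (Klf3, 3.45%) had a knockout-only region and 20 had a wild-type region. Of these 20, 7 also had a reproducible knockout region, which is left out of the set because of the wild-type peak. Among 30 cell cycle, replication and repair genes there was 1 (Mcm7, a subunit of the replicative helicase), among 26 cell surface receptor genes 2 (Fzd1 and Fzd10, both Wnt receptors) and among 14 chromatin regulators 1 (Baz1b). The regions of these 5 genes were 349 to 2247 bp wide, all wholly downstream of the TSS, and covered at most 15.2% of the promoter window in either knockout library. None of 31 secreted ligands and guidance factors and none of 14 fibroblast matrix and cytoskeleton genes had one, while 7 and 3 of them had a wild-type region, shares close to the 21.2% of all protein-coding genes of the chromosome.

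**Figure D4:**
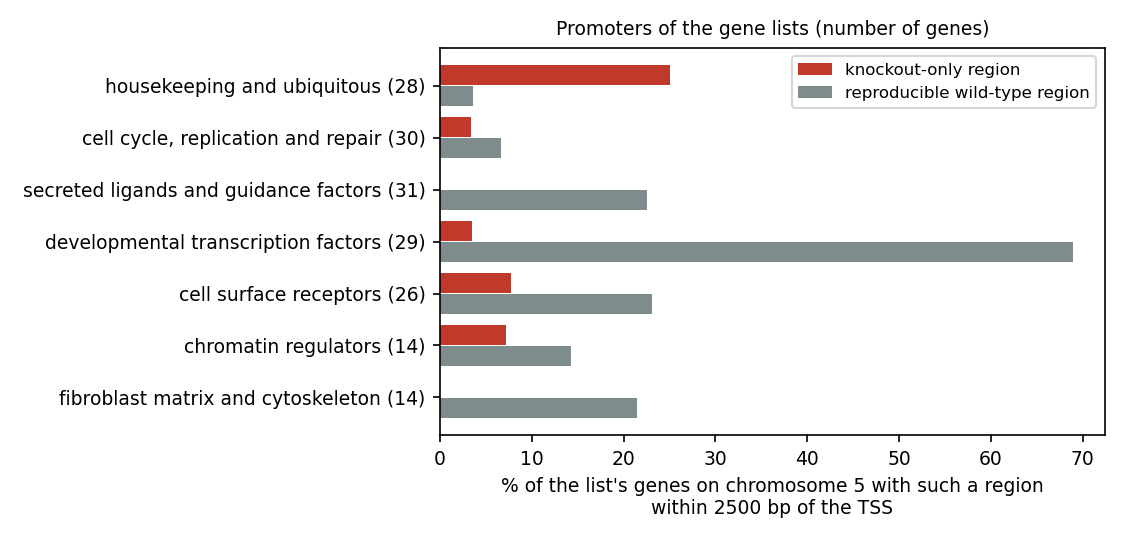
Percent of each list's chromosome 5 genes with a knockout-only region (red) or a reproducible wild-type region (grey) within 2500 bp of the TSS, with the number of genes in brackets. The housekeeping list reached 25% for knockout-only regions, with all its cytosolic ribosomal protein genes among them. Of 29 developmental transcription factor genes, 20 had a wild-type region.

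The 7 housekeeping genes included Rplp0, Rpl9, Rpl6 and Rpl21, which encode ribosomal proteins, Ran, the GTPase of nuclear transport, and Gusb, a lysosomal glucuronidase. Their regions were narrow, the widest being 1446 bp at Rplp0, and only Ran lay in a block. In 6 of the 7 the region lay wholly downstream of the TSS, inside the gene. At Rplp0 (chr5:116009476-116013736) it ran from 685 to 2130 bp past the TSS, and the promoter window was 26.0% and 23.0% under peaks in the knockout libraries, against 0% in both wild-type libraries. At Ran (chr5:129525944-129530198) it ran from 859 to 2258 bp past the TSS, with 25.4% and 26.8% in the knockout libraries, against 0% in both wild-type libraries.

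At Rpl9 the window was 23.7% and 24.4%, and at Rpl6 18.7% and 20.6%, under peaks in the knockout libraries, against 0% in both wild-type libraries. The Gusb region instead lay upstream, at -2403 to -1381 bp. The promoter window was 19.3% and 9.76% under peaks in the knockout libraries at Gusb, and 11.8% and 19.6% at Rpl21, against 0% in both wild-type libraries at each. Exons made up 0 to 100% of the 7 regions, 100% at Rpl9 and 47.6% at Rplp0, and ribosomal protein exons have near-identical pseudogene copies, so the counting of reads in them is uncertain. No experiment 2 list had a peak in any of the 7 promoter windows.

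Among regions near more than 1 TSS, none met more than 2. The widest of these were 2174 bp at Gm20499 and RP23-3M10.7 (chr5:115270730-115272903), 1614 bp at the RNA-binding protein gene Hnrnpd (chr5:100405407-100407020) and 1374 bp at its relative Hnrpdl (chr5:100466016-100467389). The Hnrpdl region was 91.8% and 96.7% under peaks in the knockout libraries, against 0% in both wild-type libraries.

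Few of the regions recurred in experiment 2. The knockout lists of that experiment met 0 and 0 of the 3139, the Ezh1 pre-rescue list 168 (5.35%, 95% Wilson interval 4.62 to 6.20%), the Ezh2 pre-rescue list 59 (1.88%, 1.46 to 2.42%), and the wild-type lists 18 (0.573%) and 13 (0.414%). Among knockout-only regions of the other chromosomes the shares in the same order were 0%, 0.0366%, 3.68%, 1.61%, 0.284% and 0.101%. The shares on chromosome 5 were thus higher than elsewhere in both pre-rescue lists and both wild-type lists, and these differences were not tested. Chromosome 5 makes up 5.75% of the genome, yet all 4 lists were denser there in general. It held 7.56% and 9.38% of peak bases in the Ezh1 and Ezh2 pre-rescues, and 9.03% and 8.73% in the wild-type libraries. Regions of chromosome 5 were also wider, with a median of 1696 bp against 1313 bp elsewhere, and a wider region meets a peak more easily. Without experiment 1 wild-type replicate 2 the Ezh2 pre-rescue share was 3.01%. It was 4.71% where wild-type overlap up to 50% was allowed, and 0.382% where 50% of the region had to be covered. For the Ezh1 pre-rescue the last pair of settings gave 9.40% and 1.72%. In all, 196 regions (6.24%) met a peak of at least 1 of these lists. The intervals cover counting error only and take regions as independent, though 78.0% of them lay in blocks.

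Measured in bases, the peaks of experiment 2 lay under 0% and 0% of the regions in the knockout libraries, 1.95% in the Ezh1 pre-rescue, 0.502% in the Ezh2 pre-rescue, and 0.114% and 0.0836% in the wild-type libraries. The knockout mean was 0% ± 0 and the wild-type mean 0.0987% ± 0.0215 (SD, n = 2 each; two-sided exact permutation p = 0.333, and 2 against 2 libraries can give none smaller). The groups did not overlap, but the design cannot pass 0.05, and the knockout lists held only 5 and 67 peaks on the whole chromosome. All 5 of these and 62 of the 67 overlapped wild-type peaks of experiment 1. The study speaks of biological replicates for some plots of these data, but the labels do not say which libraries came from separate cultures. Part of the spread between the libraries may therefore be technical. With 2 against 2 libraries the p-value reflects only that the groups separated, and it does not measure that spread.

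For scale, the bases of chromosome 5 outside wild-type peaks of experiment 1 were covered at 0.00125% and 0.00657% by the knockout lists of experiment 2, 6.51% by the Ezh1 pre-rescue, 1.63% by the Ezh2 pre-rescue, and 0.302% and 0.217% by the wild-type lists. Each list that met the regions thus covered less of their bases than of the chromosome outside wild-type peaks. The 451 left-out knockout regions had a different record, which their sorting by wild-type peaks of the same clone set in part beforehand. Peaks met 0% and 2.00% of them in the knockout lists of experiment 2, 86.3% (82.8 to 89.1%) in the Ezh1 pre-rescue, 61.0% (56.4 to 65.4%) in the Ezh2 pre-rescue, and 16.4% and 12.4% in the wild-type lists.

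Recurrence was highest next to wild-type peaks of experiment 1. Of 270 regions under 10 kb from such a peak, 104 (38.5%) met an Ezh1 pre-rescue peak, of 519 at 10 to 100 kb 45 (8.67%), and of 2350 at 100 kb or more 19 (0.809%). For the Ezh2 pre-rescue the counts in the same order were 40 (14.8%), 15 (2.89%) and 4 (0.170%), and for the wild-type libraries 12 and 9, 4 and 3, and 2 and 1. The regions with an Ezh1 pre-rescue peak lay at a median of 5.09 kb from an experiment 1 wild-type peak, against 305 kb for those without. For the Ezh2 pre-rescue the medians were 4.61 and 295 kb.

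**Figure D5:**
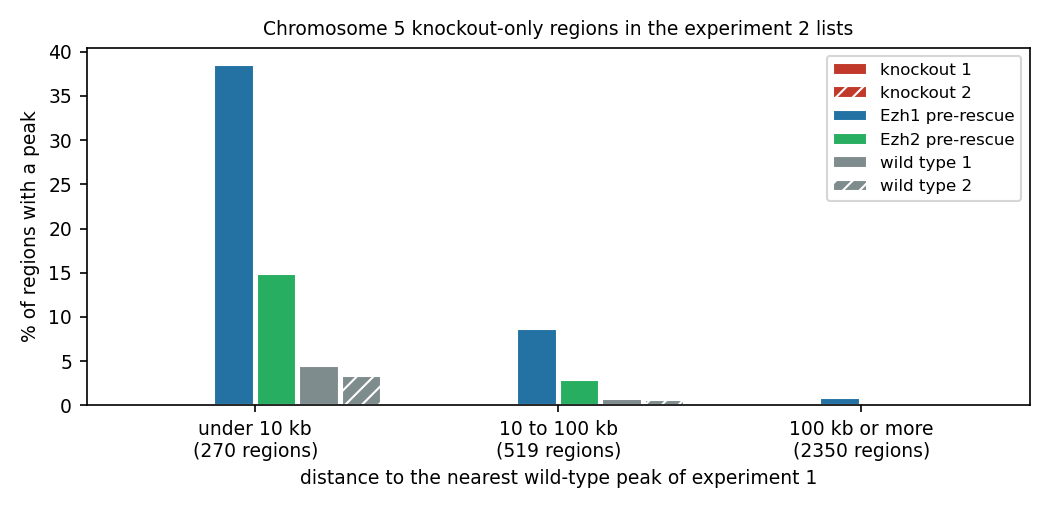
Percent of the chromosome 5 knockout-only regions that met a peak in each experiment 2 library, by distance to the nearest wild-type peak of experiment 1. The Ezh1 pre-rescue met fewer in each farther class, at 38.5%, 8.67% and 0.809%, and both knockout lists met none.

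Only 36 regions were met by both pre-rescue lists, and 4 by both wild-type lists of experiment 2. Peaks of all 4 of these lists occurred in 2 regions, named here after their values were seen. One, in the adhesion receptor gene Gpr133 (chr5:129645528-129652511, 6984 bp), was 22.6% and 95.7% under peaks in the experiment 1 knockout libraries, and 2.48% (Ezh1 pre-rescue), 8.20% (Ezh2 pre-rescue), 8.59% and 7.88% (wild type) in experiment 2. The other, 882 bp at Gm6309 (chr5:146995230-146996111), was 52.4% and 59.4% under peaks in the experiment 1 knockout libraries, 100% in each pre-rescue, and 100% and 73.7% in the experiment 2 wild-type libraries.

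The weight of chromosome 5 among all peaks was also compared in experiment 2. It carried 9.35% and 15.3% of peak bases in the knockout libraries, 7.56% in the Ezh1 pre-rescue, 9.38% in the Ezh2 pre-rescue, and 9.03% and 8.73% in the wild-type libraries. The knockout mean was 12.3% ± 4.24 and the wild-type mean 8.88% ± 0.211 (SD, n = 2 each), a difference of 3.46 percentage points (p = 0.333 in the same exact permutation test). Without knockout replicate 2 the difference was 0.464 points, and without knockout replicate 1 it was 6.46, so 1 library decides its size in bases. By number of peaks the shares were 17.2% and 17.5% in the knockout libraries, against 8.92% and 8.69% in the wild-type libraries. They were 6.62% in the Ezh1 pre-rescue and 8.24% in the Ezh2 pre-rescue. These shares were not tested, and the first knockout list had only 5 of its 29 peaks on chromosome 5. In experiment 1, which chose the regions, the shares of peak bases were 21.2% and 21.7% in the knockout libraries and 6.66% and 6.33% in the wild-type libraries.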

How the data were processed

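H3K27me3 was mapped in 10 mouse fibroblast libraries with peak lists. The 2 input samples were not analysed here. Per the study's methods and the submitters' processing notes, the authors aligned reads to mm9 with Bowtie 0.12.8 or Bowtie2 2.1.0, down-sampled the mapped reads to a common total, thinning the Ezh2 -/- libraries most and the Ezh1 pre-rescue less, and called peaks per sample against input with MACS2 2.0.10. The deposited lists hold chromosome, start and end only, so the files give neither peak height nor the reads behind a peak. Differences in depth between libraries change how many and how wide the peaks are.

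Duplicate lines were counted once and mitochondrial peaks dropped. Intervals were joined and intersected (1 bp or more) in Python 3.11.15 with NumPy 2.4.6, code tested on simulated data. Genes came from GENCODE on the same build. For the named regions and genes the rule took the 5 widest regions, those with most TSSs, those at the selection edge, the widest in the fullest 5-Mb windows, the 10 genes with the widest promoter regions and up to 4 per list. Any other name was chosen after values were seen. All 7 gene lists are described, and some items are not reported here. Experiment 2 knockout and wild-type libraries were compared by exact permutation tests. Alternatives varied overlaps, widths, windows and libraries. The regions and lists were chosen with earlier results of these data known.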

Additional observations from a re-analysis of the deposited data

Results flagged for a closer look

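The knockout minus wild-type difference in the percent of region bases under peaks had opposite signs in the experiments: it was -0.0987 percentage points in experiment 2, where both knockout libraries lay below both wild-type libraries, while in experiment 1 both knockout libraries lay above both wild-type libraries (44.9% and 90.9%, against 0% and 0%). The experiment 1 side was fixed by how the regions were chosen, the antibody and instrument differed, and the difference between experiments was not tested.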

How the results depend on the processing

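Joining peaks under 1000 bp apart, asking for knockout peaks of at least 500 bp, or of at least 1000 bp, gave 2049, 1899 and 833 regions on chromosome 5, with densities 3.52, 5.08 and 6.08 times those of the other autosomes. Leaving out 1 library gave 3189 to 7495 regions and 2.64 to 4.41 times. The share of genes with a knockout-only promoter was 5.04% and 2.90% with the 500-bp and 1000-bp minimum, 4.74% and 8.94% with promoters of 1000 and 5000 bp on either side, and 7.33 to 12.3% without 1 library. The rank correlation of regions and genes in 5-Mb windows was 0.38 with knockout peaks sharing 50%, 0.26 with peaks joined and 0.41 at 1000 bp, 0.083 in 2-Mb and 0.72 in 10-Mb windows, and 0.21 to 0.35 without 1 library. Median G+C was 45.1% with wild-type overlap of 50%, 45.2% with knockout sharing of 50%, 44.1% with peaks joined, 45.4% and 46.1% at 500 and 1000 bp, and 44.2 to 45.0% without 1 library. The Ezh1 pre-rescue met 9.40% of regions with wild-type overlap of 50%, 7.08% at 1000 bp, 1.72% where 50% of the region had to be covered, and 3.93 to 7.19% without 1 library. The Ezh2 pre-rescue met 4.71%, 2.76% and 0.382% under the same 3 settings, and 1.29 to 3.01% without 1 library. Chosen after seeing the data, blocks held 67.4% of regions with peaks joined, 62.5% at 1000 bp, 71.6% and 84.0% with gaps of 25 and 100 kb, and 78.3 to 84.8% without 1 library, and long genes past 25% numbered 7 to 16 without 1 library and up to 18 with wild-type overlap of 50%. The cause of these changes was not tested, beyond the fewer peaks each stricter setting keeps.

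With the replicate block the experiment 2 differences were -0.0987 points for region bases and 3.46 points for the chromosome 5 share (exact sign-flip test, p = 0.5 each, the smallest for 2 pairs). The replicate numbers name samples only. Leaving out 1 library gave -0.148 to -0.0836 and 0.464 to 6.46 points, and no setting tried turned either direction. Peak lists without heights limit all comparisons to presence and width.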
